A study of Mus musculus with 12 samples.

Results

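This report concerns Il33, which encodes the cytokine interleukin-33, and the genes of both chains of its receptor, Il1rl1 (ST2) and Il1rap. These 3 genes were found among the 46983 genes of the count files by matching Ensembl identifiers, without their version, to mouse symbols, and all 3 passed the filter on low counts that left 14706 genes for testing. Il33 was selected on measured values, because it is on the study's list of genes changed by at least 30% against unexposed Wt in both diabetes-exposed groups, so its levels in these samples are given as a description with no test. Il1rl1 and Il1rap were chosen by their role as its receptor and were tested.

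Left ventricles (LV) were taken from 12-week-old FVB offspring, with 3 samples in each of 4 groups. The groups were unexposed Wt, diabetes-exposed Wt, unexposed Hif1a+/- and diabetes-exposed Hif1a+/-, where exposure means that the dam had been made diabetic with streptozotocin before mating. All dams were Wt and the Hif1a+/- sires passed on a null allele that was deleted in every cell type, so a cell-type source of any genotype difference cannot be told apart. The animals of a group came from several litters.

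IL-33 is a cytokine of the IL-1 family that is stored in the nucleus of fibroblasts, endothelial cells and epithelial cells and is set free when cells are damaged. It binds ST2, which then recruits the IL-1 receptor accessory protein encoded by Il1rap, and the complex signals through MyD88, IRAK kinases and TRAF6 to NF-kB and MAP kinases. In the heart the source is largely non-myocyte cells, membrane ST2 is linked to protection of strained muscle, and a soluble ST2 that captures the cytokine is measured in blood as a marker of heart failure.

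Il33 (ENSMUSG00000024810) lies on the plus strand of chromosome 19 from base 29925114 to 29960718 of GRCm38. Both of its transcripts with a known end have 8 exons and differ in their first exon, with starts 20676 bases apart, while their ends lie 14 bases apart. The 3′-seq libraries read the end of a transcript, so the counts of Il33 do not tell the starts apart. The 250 bases before each annotated start are shown, taken from RefSeq (GRCm38.p6, plus strand). Which start the transcripts counted here use is not known. Capitals mark TATAAA, searched on the plus strand.

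Il33 upstream start, chr19:29924863-29925112: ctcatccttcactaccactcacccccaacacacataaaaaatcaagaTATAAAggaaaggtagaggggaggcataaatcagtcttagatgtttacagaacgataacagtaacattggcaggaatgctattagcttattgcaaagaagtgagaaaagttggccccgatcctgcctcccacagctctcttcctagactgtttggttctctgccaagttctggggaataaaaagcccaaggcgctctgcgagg
Il33 downstream start, chr19:29945540-29945789: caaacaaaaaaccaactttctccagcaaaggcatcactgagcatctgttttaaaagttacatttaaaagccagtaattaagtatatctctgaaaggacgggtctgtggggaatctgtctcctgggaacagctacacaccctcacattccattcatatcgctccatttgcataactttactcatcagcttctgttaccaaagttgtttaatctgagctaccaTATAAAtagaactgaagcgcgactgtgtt

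The TATAAA of the downstream start begins 29 bases before the start, and that of the upstream start 203 bases before it. Of all 32851 RefSeq mouse windows of this length, 7.59% held TATAAA. No ACGTG or GCGTG, the core of the HIF site, was found on either strand of both Il33 windows, whereas 38.6% of all windows held at least 1. The window of Il1rap held 5 such cores, that of the downstream Il1rl1 start held 1 and that of its upstream start held 0. TGANTCA, the AP-1 letters, was in no window of the 3 genes on either strand, and 6.75% of all windows held it. These are matches of letters in short windows and not measured binding.

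Il1rl1 (ENSMUSG00000026069) lies on the plus strand of chromosome 1 from base 40429570 to 40465415, and Il1rap (ENSMUSG00000022514) on the plus strand of chromosome 16 from 26581704 to 26730117. Of the 4 Il1rl1 transcripts with a known end, 2 run to within 19 bases of the gene's end and 2 stop 17267 and 18692 bases before it. Short transcripts of this kind encode soluble ST2 and long ones the membrane receptor. The files give 1 count per gene, so both forms are merged, as are the short and long forms of Il1rap, where Il1rap-206 ends 27761 bases before the end of the gene. No exon of another gene overlapped the exons of Il33 or Il1rl1 in the annotation, and 3 exons of Il1rap overlapped a gene on the other strand, Gm20319.

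**Figure D1:**
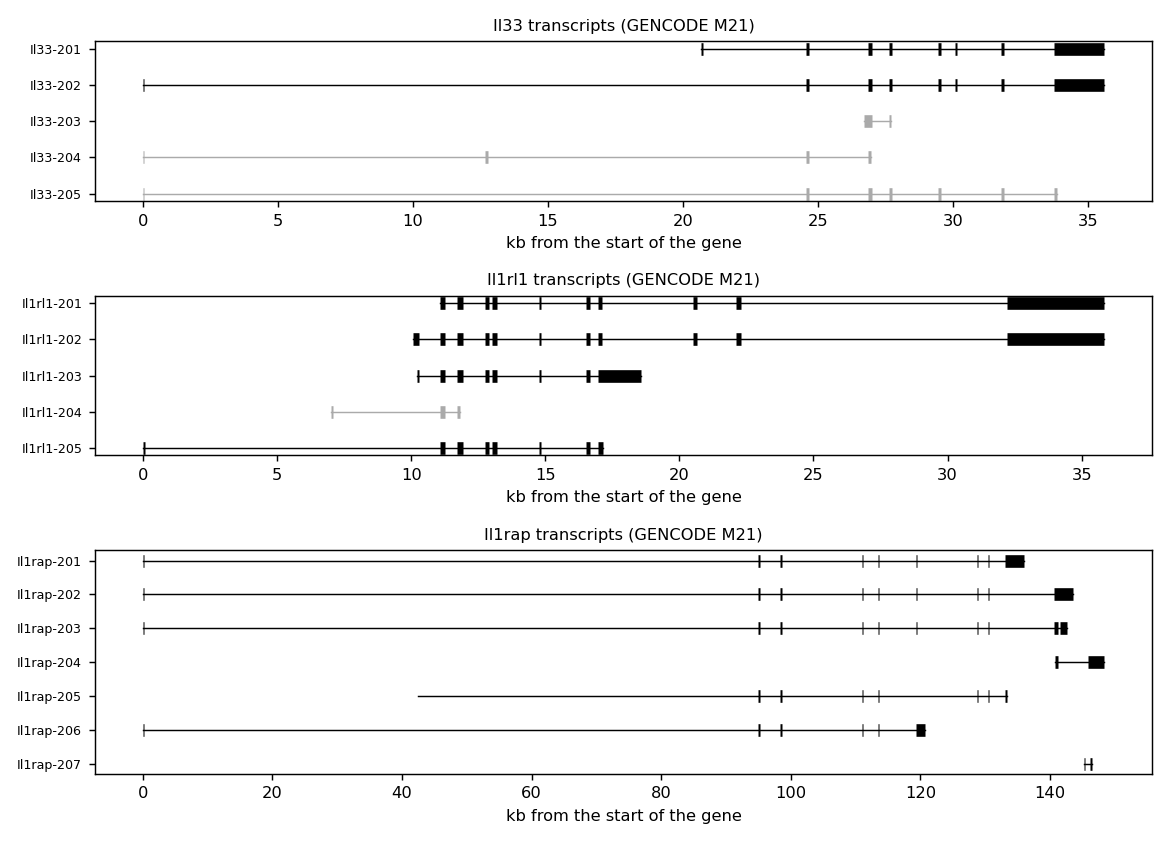
Transcripts of the 3 genes in GENCODE M21, with exons as boxes and introns as lines against the distance in kb from the start of each gene; transcripts without a known end are grey. The 2 full Il33 transcripts share their last exon, whereas 2 Il1rl1 transcripts stop 17267 and 18692 bases before the end of the gene.

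The samples held between 16132442 and 39812939 counts. The targeted gene, Hif1a, was at 55.6, 56.9 and 71.8 CPM (counts per 1000000 counts of the library, adjusted by TMM) in unexposed Wt, 47.9, 59.2 and 58.6 in diabetes-exposed Wt, 89.3, 78.7 and 88.9 in unexposed Hif1a+/-, and 70.5, 64.7 and 81.4 in diabetes-exposed Hif1a+/-. It was thus not lower but higher in Hif1a+/-, with a log2 fold change of 0.48 ± 0.12 (SE) in unexposed and 0.39 ± 0.12 in exposed samples. By edgeR's quasi-likelihood test the unadjusted p was 0.0018 and 0.0077 and the adjusted p 1.0 and 0.862, where 0 of all 14706 tested genes passed. The study also lists Hif1a as higher in unexposed Hif1a+/-. In the annotation 3 exons of Hif1a overlapped another gene on the same strand. Since the files give 1 count per gene from 3′ reads, with no position in the gene, these counts do not check the deletion. By the labels the animals were female, whereas the study used males. In 11 of 12 samples 4 Y-linked genes together exceeded Xist, at 194.7 to 249.8 CPM against 0.23 to 5.99. In diabetes-exposed Hif1a+/- replicate 72 they were at 1.14 CPM against 158 for Xist, the pattern of a female. By these genes diabetes-exposed Hif1a+/- mixed the sexes and the other groups did not, so values without that sample are given beside the results. The red blood cell list stood apart in unexposed Wt replicate 25, at 7317 CPM against 185 to 1770 in the other samples, and values without it are given too. Cardiomyocyte markers such as Myh6 were present in every sample.

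Il33 was a low-abundance transcript that lay higher in every diabetes-exposed LV than in every unexposed one. Its level was 3.80, 2.23 and 2.16 CPM in unexposed Wt (from 61, 49 and 53 counts) and 4.13, 2.25 and 2.26 CPM in unexposed Hif1a+/- (106, 40 and 45 counts). In both unexposed groups 1 animal, replicate 25 and replicate 14, stood above the other 2. The level was 4.47, 8.0 and 6.85 CPM in diabetes-exposed Wt (97, 235 and 120 counts) and 5.47, 7.48 and 12.5 CPM in diabetes-exposed Hif1a+/- (213, 170 and 284 counts). The highest value was in diabetes-exposed Hif1a+/- replicate 77. The highest unexposed sample, at 4.13 CPM, lay just under the lowest exposed one, at 4.47 CPM, and these are samples of different genotypes. Of all tested genes, 37 had all 6 exposed above all 6 unexposed samples (0.252%), and since Il33 was chosen for this change nothing is read from that share. In LV tissue, fewer cells of a type and less RNA per cell cannot be told apart.

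**Figure D2:**
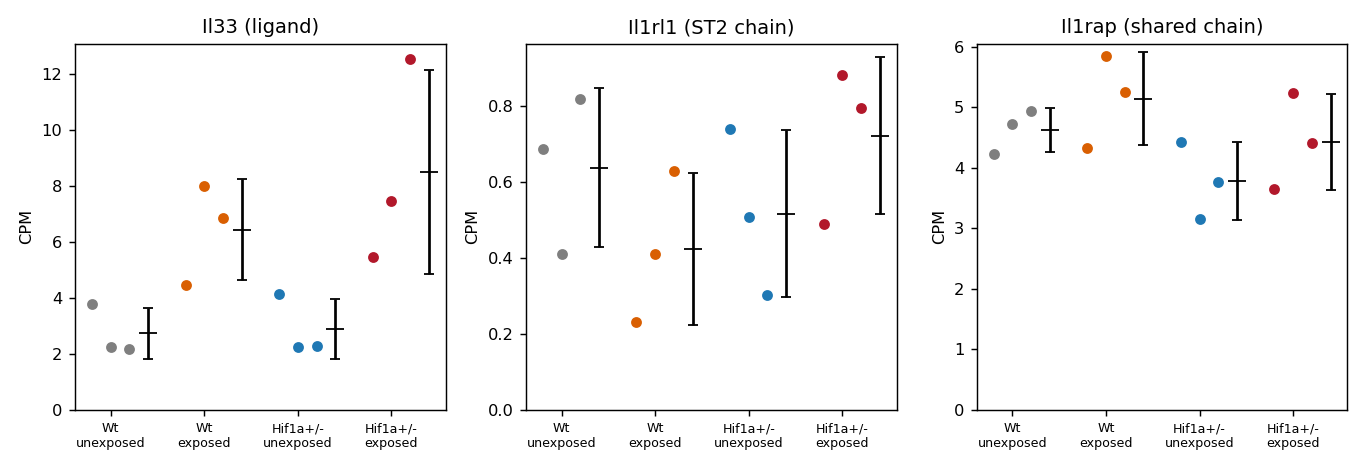
Level in CPM of Il33, Il1rl1 and Il1rap in each sample, with 3 samples per group as points and the group mean ± SD as a bar beside them; each axis starts at 0. The 6 exposed samples lie between 4.47 and 12.5 CPM for Il33 and the 6 unexposed ones between 2.16 and 4.13, whereas the groups overlap for both receptor chains.

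In order of group means, Il33 was at 2.73 ± 0.924 CPM (SD, n = 3) in unexposed Wt, 2.88 ± 1.08 in unexposed Hif1a+/-, 6.44 ± 1.80 in diabetes-exposed Wt and 8.49 ± 3.64 in diabetes-exposed Hif1a+/-. The first pair of neighbours and the last pair differed by less than their spread, and the step in between, from unexposed to exposed, was larger than the SD on both sides. The fitted log2 fold change with exposure was 1.27 ± 0.36 (SE) in Wt, 2.41-fold, and 1.53 ± 0.35 in Hif1a+/-, 2.88-fold. Averaged over both genotypes it was 1.40 ± 0.25, 2.63-fold. Diabetes-exposed Hif1a+/- lay 1.65 ± 0.35 above unexposed Wt.

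Between genotypes, Il33 differed by less than the SD between replicates, which was 0.50 on the log2 scale. The log2 fold change of Hif1a+/- against Wt was 0.13 ± 0.37 (SE) in unexposed and 0.38 ± 0.33 in exposed samples, and the change with exposure differed between genotypes by 0.26 ± 0.50. Without replicate 72 the changes with exposure were 1.27 in Wt and 1.61 in Hif1a+/-. Without replicate 25, the animal with high red cell genes, they were 1.56 in Wt and 1.54 in Hif1a+/-, and the difference between genotypes was -0.02.

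Il1rl1, the ST2 chain that gives the receptor its specificity for IL-33, was close to the lower limit of what these libraries could count. It had 11, 9 and 20 counts in unexposed Wt, 5, 12 and 11 in diabetes-exposed Wt, 19, 9 and 6 in unexposed Hif1a+/- and 19, 20 and 18 in diabetes-exposed Hif1a+/-. In CPM these were 0.684, 0.409 and 0.817, then 0.230, 0.408 and 0.628, then 0.740, 0.507 and 0.301, and 0.488, 0.880 and 0.794. The 4 groups overlapped. The lowest sample, with 5 counts, has a 95% exact Poisson interval of 1.62 to 11.7 counts and the highest, with 20 counts, one of 12.2 to 30.9, which cover counting error only.

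With exposure, the log2 fold change of Il1rl1 was -0.62 ± 0.45 (SE) in Wt (adjusted p = 1.0, edgeR quasi-likelihood test) and 0.41 ± 0.42 in Hif1a+/- (adjusted p = 0.711). The estimates had opposite signs, and the difference between them was 1.03 ± 0.62 (unadjusted p = 0.12, adjusted p = 0.998), with a 95% interval from -0.31 to 2.37. Hif1a+/- against Wt gave 0.76 ± 0.44 in exposed samples (adjusted p = 0.862) and -0.27 ± 0.44 in unexposed ones (adjusted p = 1.0). Diabetes-exposed Hif1a+/- against unexposed Wt gave 0.14 ± 0.41 (adjusted p = 0.929). Over both genotypes the change with exposure was -0.11 ± 0.31, with an interval from -0.77 to 0.56 (adjusted p = 0.911). The exact two-sided permutation test within genotypes gave a mean difference of -0.01 on the log2(CPM + 1) scale, where low genes are compressed (p = 0.915, 400 arrangements, smallest possible p 0.005). Without replicate 72 the change in Hif1a+/- was 0.25 and the difference between genotypes 0.87. Without replicate 25 the change in Wt was -0.58 and the difference 1.0.

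Il1rap, the chain that ST2 shares with the IL-1 and IL-36 receptors, was counted well and varied little. Its level was 4.23, 4.73 and 4.94 CPM in unexposed Wt, 4.33, 5.85 and 5.25 in diabetes-exposed Wt, 4.44, 3.15 and 3.77 in unexposed Hif1a+/- and 3.64, 5.23 and 4.41 in diabetes-exposed Hif1a+/-. Exposed and unexposed samples overlapped in both genotypes. The log2 fold change with exposure was 0.15 ± 0.18 (SE) in Wt (adjusted p = 1.0, edgeR), 0.21 ± 0.19 in Hif1a+/- (adjusted p = 0.657) and 0.18 ± 0.13 over both (adjusted p = 0.601, 95% interval -0.10 to 0.46). The exact two-sided permutation test within genotypes gave a difference of 0.15 on the log2(CPM + 1) scale (p = 0.15). Hif1a+/- against Wt gave -0.29 ± 0.19 in unexposed and -0.23 ± 0.18 in exposed samples (adjusted p of 1.0 and 0.863), and the difference between genotypes in the change with exposure was 0.06 ± 0.26 (adjusted p = 0.998). Diabetes-exposed Hif1a+/- differed from unexposed Wt by -0.08 ± 0.18 (adjusted p = 0.907). Without replicate 72 the change with exposure in Hif1a+/- was 0.08, and without replicate 25 that in Wt was 0.09.

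Because 3′ counts do not scale with transcript length, ligand and receptor counts were also set against each other within a sample. There were 5.55, 5.44 and 2.65 Il33 counts per Il1rl1 count in unexposed Wt and 5.58, 4.44 and 7.50 in unexposed Hif1a+/-. In exposed samples the ratio was 19.4, 19.6 and 10.9 in Wt and 11.2, 8.50 and 15.8 in Hif1a+/-. The 6 exposed ratios lay above the 6 unexposed ones, with means of 14.2 ± 4.71 and 5.19 ± 1.59 (SD, n = 6). Per Il1rap count, Il33 had a mean of 0.675 ± 0.209 in unexposed samples, between 0.438 and 0.930, and of 1.58 ± 0.639 in exposed samples, between 1.03 and 2.84. Il33 thus went from fewer counts than its shared receptor chain in every unexposed sample to more in every exposed one. Both ratios contain Il33 and so carry the choice of that gene.

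The level of Il33 was next set beside the marker genes of cells that can hold it. The fibroblast list was at 1104 to 1436 CPM in unexposed and 1165 to 1650 in exposed samples, and 0 of its 7 genes reached an unadjusted p under 0.05 for exposure over both genotypes, which 11.3% of all tested genes reached. Per 1000 CPM of these genes, Il33 was at 1.51 to 3.44 in unexposed and 3.84 to 8.01 in exposed samples, which did not overlap. The endothelial list was at 950 to 1109 CPM in unexposed and 902 to 1244 in exposed samples, with 1 of 7 genes higher and 1 lower at that unadjusted threshold. Per 1000 CPM of it, Il33 was at 2.03 to 3.91 and 4.43 to 12.6, again without overlap. These ratios, and those to the other lists below, contain Il33 and so carry the choice of that gene. Nothing is read from their separation.

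Other lists were higher in exposed samples alongside Il33. At an unadjusted p under 0.05 by edgeR, all 7 genes of the adventitial fibroblast list were higher (Dpt was the most abundant). So were 6 of 8 genes of the macrophage list (Lyz2 was the most abundant). Of all tested genes, 11.3% reached that threshold in either direction. The median log2 fold changes of these lists were 0.52 and 0.53 against 0.0 over all tested genes. No gene of either list passed the adjusted threshold, and 0 of all 14706 tested genes did. Pi16, Cd248, Clec3b, Mfap5 and Dpt of the first list and C1qa, Lyz2 and Mrc1 of the second are on the study's list of higher genes. The counts thus partly repeat a known result of the same samples and are a description. The adventitial sum was 325 to 415 CPM in unexposed Wt, 375 to 473 in diabetes-exposed Wt, 344 to 386 in unexposed Hif1a+/- and 531 to 827 in diabetes-exposed Hif1a+/-. The macrophage sum was 280 to 399, 286 to 465, 212 to 318 and 424 to 594 CPM in the same order. By contrast, the study's stain for a macrophage marker, which shows protein and not RNA, gave more positive cells only in diabetes-exposed Wt. Set against the adventitial and macrophage lists, Il33 still separated exposed from unexposed samples in Wt but overlapped in Hif1a+/-. Per 1000 CPM of the adventitial list, Il33 was at 5.21 to 9.79 in unexposed and 11.9 to 17.8 in diabetes-exposed Wt, and at 5.84 to 11.5 and 10.3 to 15.2 in Hif1a+/-. Per 1000 CPM of the macrophage list it was at 5.42 to 13.3 and 14.7 to 23.7 in Wt, and at 7.42 to 13.0 and 10.2 to 21.1 in Hif1a+/-. Of the venous and lymphatic endothelial list, 5 of 8 tested genes were higher at the unadjusted threshold, and Vwf and Lyve1 are on the study's list too. The list summed to 191 to 255 CPM in unexposed and 212 to 303 in exposed samples. Il33 per 1000 CPM of it was at 11.1 to 14.9 and 20.3 to 32.3 in Wt, and at 9.62 to 18.4 and 18.1 to 44.8 in Hif1a+/-, where the groups just overlapped. For the smooth muscle and pericyte list and the mesothelial list, of whose tested genes 0 were higher and 2 of 7 and 0 of 5 lower at the unadjusted threshold, the groups were apart within each genotype but overlapped over both, with 2.02 to 4.08 against 3.98 to 13.9 and 115 to 204 against 180.0 to 866 Il33 CPM per 1000 CPM. The part of these cell types in the level of Il33 was not tested.

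**Figure D3:**
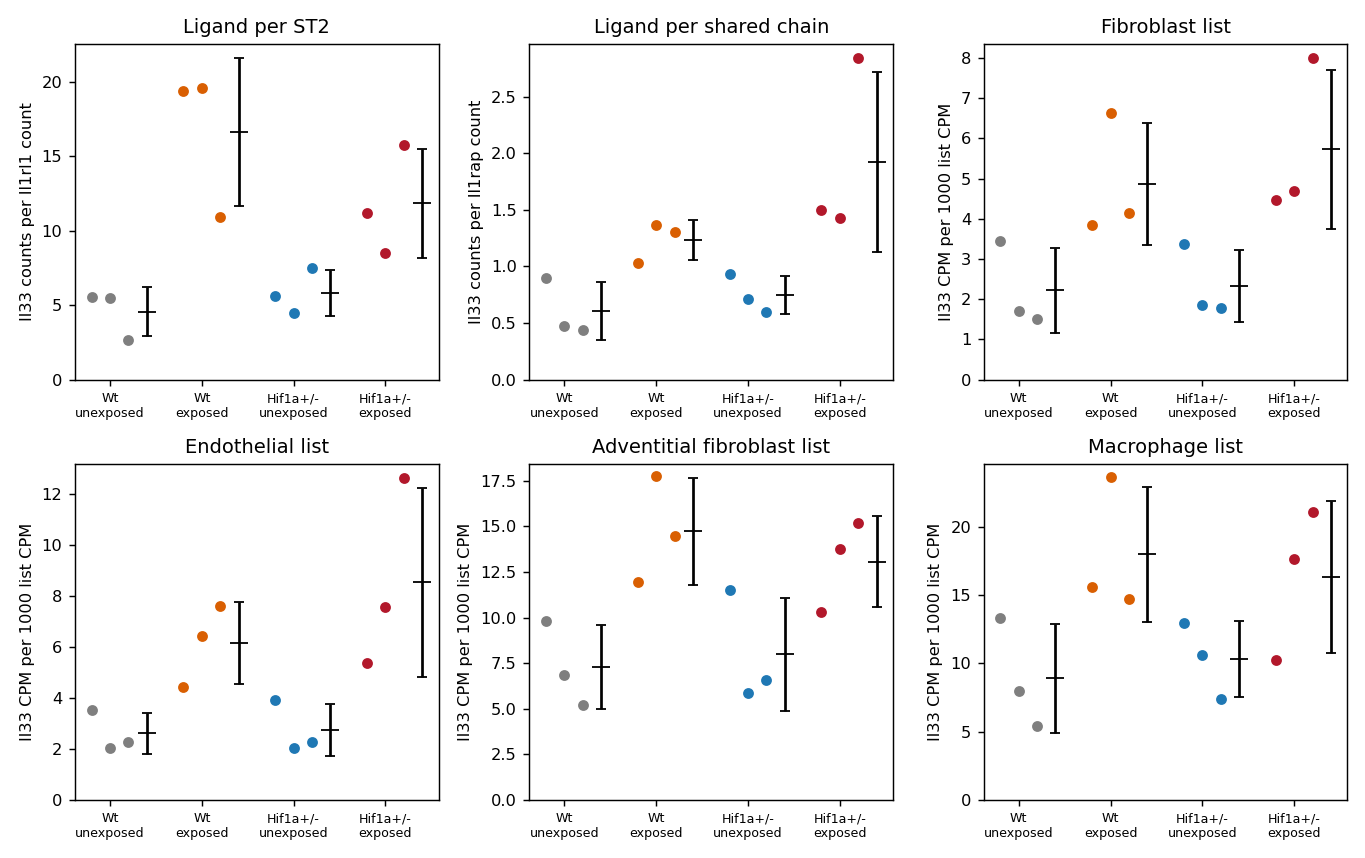
Il33 counts per Il1rl1 or Il1rap count, and Il33 CPM per 1000 summed CPM of 4 marker lists, in each sample, with the group mean ± SD as bars and axes from 0. Exposed and unexposed samples are apart for both receptor chains and for the fibroblast and endothelial lists; for the adventitial fibroblast and macrophage lists they are apart in Wt and overlap in Hif1a+/-.

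Marker lists of some immune cells known to respond to IL-33 through ST2 are given as summed levels, which do not measure the number of cells. The eosinophil and basophil list summed to at most 0.132 CPM, with Epx and Mcpt8 at 0 counts in all 12 samples. Mast cell markers summed to 6.53 to 10.6 CPM in unexposed and 7.96 to 12.0 in exposed samples, with Kit, which other cells also carry, the most abundant and Fcer1a at 0. The list of group 2 innate lymphoid and T helper 2 cells was at 45.8 to 49.6 and 47.8 to 59.7 CPM, led by Rora, which is not particular to these cells, and regulatory T cell markers were at 9.72 to 13.7 and 9.76 to 12.8 CPM.

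The other genes of the pathway, 77 in 5 lists, gave 48 that could be tested. By edgeR, 0 of the 48 passed an adjusted p under 0.1 in any of the 7 comparisons (each exposure and genotype difference, their interaction, exposure over both genotypes and both factors against neither), beside a background of 0% of all 14706 tested genes in each. At an unadjusted p under 0.05, 1 of the 48 was higher with exposure in Wt and 0 lower, where 2.78% of all genes passed in either direction. In Hif1a+/- 5 were higher and 3 lower, where 12.0% of all genes passed, and over both genotypes 3 were higher and 3 lower, beside 11.3%. DESeq2 called 0 of them in Wt (0.0148% of all genes), 2 in Hif1a+/- (1.44%) and 1 over both genotypes (1.46%), all higher. For genotype in unexposed samples 0 reached the unadjusted threshold (0.959% of all genes), in exposed samples 4 (5.35%), for both factors against neither 4 (8.85%) and for the interaction 4 (2.52%), and DESeq2 called 0 of the pathway genes in each of these (0.00369%, 0.155%, 0.453% and 0% of all genes). The median log2 fold change of the 48 genes over both genotypes was 0.0, as over all tested genes.

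Among IL-1 family ligands and antagonists besides Il33, 3 of 10 could be tested and the remaining 7 were at or below 0.486 CPM. Il1b, the ligand made by activated macrophages, had a log2 fold change with exposure over both genotypes of 0.01 ± 0.46 (SE, adjusted p = 0.997), and Il18, its inflammasome-processed relative, one of -0.08 ± 0.30 (adjusted p = 0.93). Il18bp, which encodes the decoy of IL-18 and was the most abundant of the list, had 0.14 ± 0.10 (adjusted p = 0.604). Il33 was thus more abundant than the IL-1 family ligands Il1b and Il18 in every sample, which did not exceed 0.863 and 0.514 CPM. Il1rn, the IL-1 receptor antagonist, had too few counts to pass the filter, with 0.0 to 0.249 CPM in unexposed and 0.0922 to 0.486 in exposed samples. With no filter on low counts edgeR called it higher with exposure in Hif1a+/- (3.14, adjusted p = 0.0398) and over both genotypes (2.06, adjusted p = 0.0453). In each of these comparisons 2.19% of all genes were called without the filter.

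Among receptors, 3 of 8 could be tested. Il1r1, the signalling receptor of IL-1, was the most abundant at 13.9 to 17.8 CPM and had a log2 fold change of 0.01 ± 0.08 (SE, adjusted p = 0.976, 95% interval -0.17 to 0.18). Sigirr, an inhibitory receptor of the family that dampens ST2 signalling, had 0.10 ± 0.16 (adjusted p = 0.821), and Il1rl2, the receptor of IL-36, 0.08 ± 0.21 (adjusted p = 0.894). The decoy Il1r2 and both IL-18 receptor chains stayed at or below 0.396 CPM.

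Downstream of the receptor, 26 of 27 genes of MyD88 signalling were tested and their median log2 fold change with exposure was -0.05, against 0.0 for all tested genes. The lowest unadjusted p values over both genotypes were those of Traf6, the ubiquitin ligase that passes the signal on, at -0.19 ± 0.06 (SE, adjusted p = 0.325), Map3k7, which encodes the kinase TAK1, at -0.16 ± 0.06 (adjusted p = 0.41), and Tab1, a partner of TAK1, at 0.27 ± 0.12 (adjusted p = 0.435). Of 14 proteases and pore proteins that cut IL-33 or let it out of the cell, 8 were tested. Casp1, the inflammasome protease, had 0.33 ± 0.18 (adjusted p = 0.501), and Gsdmd, the pore-forming gasdermin D, had 0.23 ± 0.15 (adjusted p = 0.547).

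Of 18 genes that IL-33 is known to induce in responding cells, 8 were tested, all 8 estimates over both genotypes were above 0, where 49.2% of all tested genes were, and their median log2 fold change was 0.26 against 0.0 for all tested genes. In Wt 5 of the 8 were above 0 (51.6% of all genes) with a median of 0.11, and in Hif1a+/- 7 of 8 (49.0%) with a median of 0.70. Ccl2 and Icam1 of this list are among the study's differentially expressed genes. These counts thus partly repeat a known result of the same samples and are a description. A response of these genes to IL-33 was not tested. Vcam1, an adhesion molecule for leukocytes on endothelium, was at 16.2, 15.9 and 15.0 CPM in unexposed Wt, 22.3, 18.7 and 29.5 in diabetes-exposed Wt, 15.0, 15.3 and 15.5 in unexposed Hif1a+/- and 15.9, 23.4 and 38.0 in diabetes-exposed Hif1a+/-. Only diabetes-exposed Hif1a+/- replicate 66 lay among the unexposed samples. Its log2 fold change over both genotypes was 0.66 ± 0.17 (SE, adjusted p = 0.269 by edgeR and 0.0243 by DESeq2), and by edgeR 0.68 without replicate 25 and 0.70 without replicate 72. Icam1, another adhesion molecule, had 0.33 ± 0.13 (adjusted p = 0.384), with -0.06 ± 0.18 in Wt and 0.71 ± 0.18 in Hif1a+/- (adjusted p of 1.0 and 0.22 by edgeR and of 1.0 and 0.0256 by DESeq2). Without replicate 25 the value of Icam1 in Wt changed sign to 0.15 ± 0.17 and that over both genotypes was 0.44, and without replicate 72 the value in Hif1a+/- was 0.84. Retnla, made by alternatively activated macrophages, had 0.82 ± 0.45 (adjusted p = 0.502).

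**Figure D4:**
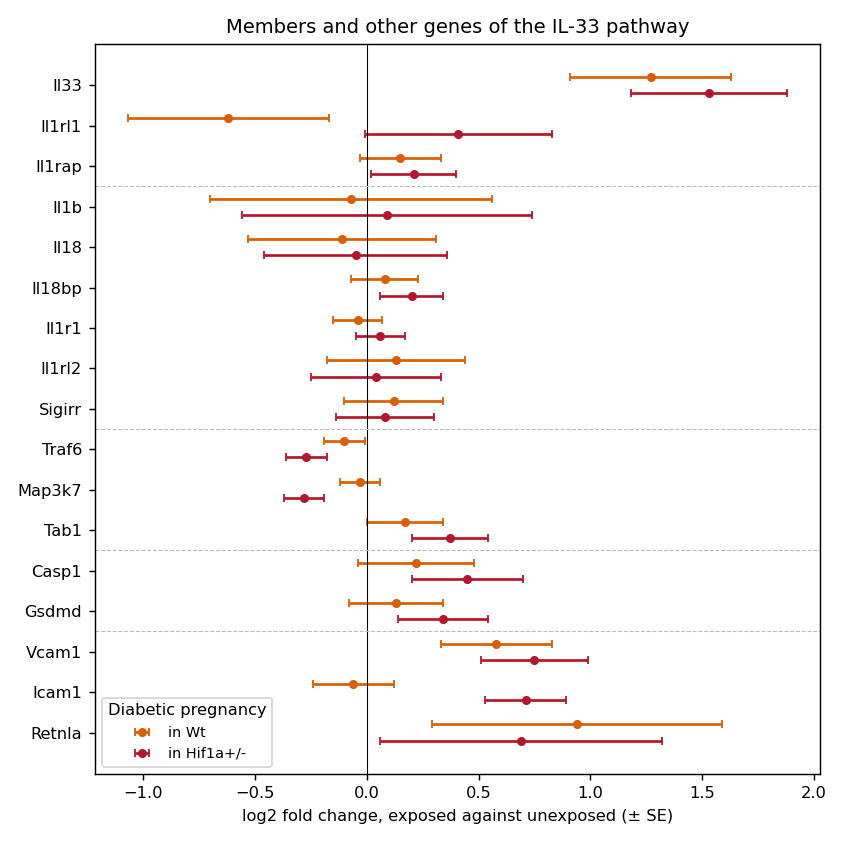
Fitted log2 fold change with exposure to maternal diabetes in Wt and in Hif1a+/- (points, ± SE as bars) for the 3 members, the tested IL-1 family genes, 3 genes of MyD88 signalling, 2 of IL-33 cleavage and release and 3 IL-33 target genes, in blocks divided by dashed lines. Il33 is at 1.27 and 1.53, whereas Il1rl1 is at -0.62 and 0.41.

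The genes whose pattern over the 12 samples was most like that of Il33 were taken by Pearson's r of log2(CPM + 1), as a description in which the points share the step with exposure. They were Axl (r = 0.954), a receptor tyrosine kinase for clearance of dying cells, Fyb (0.936), an adaptor of T cells and myeloid cells, Efhd2 (0.928), a calcium-binding protein, Ptgs1 (0.926), the constitutive cyclooxygenase, and Pla2g4a (0.906), the phospholipase that frees arachidonic acid. After the group means were taken off, r was 0.859, 0.777, 0.835, 0.744 and 0.821 in the same order. Axl, Fyb, Efhd2 and Ptgs1 are, like Il33, among the study's differentially expressed genes, so the likeness partly repeats a known result of the same samples. Axl was at 91.4 to 109 CPM in unexposed and 105 to 199 CPM in exposed samples, and its highest value, like that of Il33, was in diabetes-exposed Hif1a+/- replicate 77. Pla2g4a was at 3.43 to 4.55 CPM in unexposed and 5.16 to 7.08 CPM in exposed samples, without overlap. All exposed samples lay above all unexposed ones in 0.252% of all tested genes. Since Pla2g4a was picked for its likeness to Il33, nothing is read from its separation. The step of these genes was smaller than that of Il33, with log2 fold changes over both genotypes from 0.31 ± 0.07 (SE) for Efhd2 to 0.78 ± 0.17 for Fyb.

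**Figure D5:**
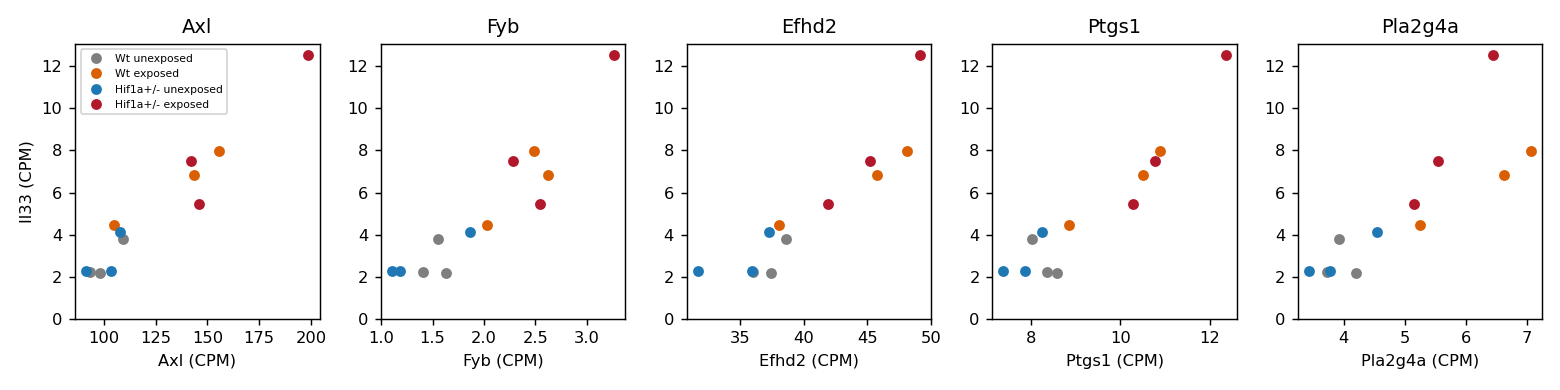
Level of Il33 in CPM against that of Axl, Fyb, Efhd2, Ptgs1 and Pla2g4a in the 12 samples, coloured by group; the horizontal axes do not start at 0. The sample with the highest Il33, at 12.5 CPM, also has the highest Axl, at 199 CPM.

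None of these 5 genes was among those most like a receptor chain. For Il1rl1 they were Zbtb22 (r = 0.931), Gpr19 (0.923), 2310030G06Rik (0.923), Slc16a11 (0.905) and Thtpa (0.902), a ranking that rests on 5 to 20 counts of Il1rl1 in a sample. For Il1rap they were Cyp2e1 (0.906), Naalad2 (0.867), Tmem52 (0.864), Gli3 (0.853) and Gm26694 (0.847). Among the members r was 0.313 for Il33 with Il1rl1, 0.444 for Il33 with Il1rap and 0.268 for the receptor chains with each other, and 0.601, 0.49 and 0.575 after the group means were taken off, over 12 samples that share library depth and tissue composition.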

How the data were processed

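RNA from the LV of 12 offspring, 3 in each of 4 groups taken from the sample labels, was sequenced as 3′-seq libraries. Per the labels and the study's methods, the authors trimmed reads with Trimmomatic, placed them on GRCm38 with STAR 2.5.2b and GENCODE annotation, and used HTSeq to obtain gene totals. The deposited counts are whole reads per gene without normalization. The deposited normalized signal, counts over a DESeq2 size factor, was used only as an alternative. Reads placed at several sites or on several genes are not in the counts.

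The 3 members and the gene lists were chosen with earlier results of these data known. Comparisons used the quasi-likelihood test of edgeR 4.0.16 in R 4.3.3, with TMM scaling, low-count genes removed by its default filter, a group-means design and all 12 samples fitted together, on 14706 genes with Benjamini-Hochberg adjustment over all of them and a threshold of 0.1. CPM use TMM library sizes. SE of a log2 fold change was its size divided by the square root of the F of the quasi-likelihood test. The 95% intervals used the t distribution with the degrees of freedom of that test. For Il33 the SE thus also carries the choice of that gene, and nothing is read from it. Exposure was also tested for the receptor chains by exact permutation within genotypes on log2(CPM + 1). Replicates of a group were compared by chi-square over genes, and all 12 pairs differed by more than sampling noise (5.35 to 43.3 per gene). The biological coefficient of variation was 13.7%.

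Genes named were the 3 members, Hif1a, the tested IL-1 family genes, the 3 genes with the lowest unadjusted p for exposure over both genotypes in each other pathway list, and the 5 genes most like each member. The values of 1 gene that this rule names are not reported here. Il1rn, Ccl2, Il1r2 and the genes called only by an alternative were named after their values were seen. Gene models came from GENCODE M21 (GRCm38), and 46488 of 46983 identifiers had a symbol there. Scripts were tested on simulated data. Alternatives were DESeq2 1.42.0, its size factors in edgeR, other filters, limma-voom with sample weights (limma 3.58.1), a robust fit, a fit of only the groups compared, a threshold of 0.05, another pseudocount, the normalized signal and leaving out each sample. Other steps ran in Python 3.11.15 (scipy 1.17.1, pandas 2.3.3).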

Additional observations from a re-analysis of the deposited data

Results flagged for a closer look

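Results were marked for a closer look where every exposed sample of one genotype lay on one side of the mean of its unexposed group and every exposed sample of the other genotype on the opposite side. No member did so. The genes below were marked on the same values that their p comes from, so these p are a description and nothing is read from them. Ccl2 encodes a monocyte-attracting chemokine, is a target of IL-33 and is on the study's list of differentially regulated genes from these samples. Its mean went from 3.45 CPM in unexposed Wt to 2.38 in diabetes-exposed Wt, and from 2.42 in unexposed Hif1a+/- to 4.64 in diabetes-exposed Hif1a+/-. The Wt groups overlapped, with values of 2.736 to 4.135 unexposed and 1.667 to 3.366 exposed. The Hif1a+/- groups did not, with 2.22 to 2.66 and 3.69 to 6.05. The difference between the genotypes was 1.48 ± 0.38 (SE) on the log2 scale, with an unadjusted p of 0.0019 and an adjusted p of 0.998 by edgeR, and was 1.48 without unexposed Wt replicate 25 and 1.62 without diabetes-exposed Hif1a+/- replicate 72. Icam1 had a mean of 20.1 CPM in unexposed and 19.2 in exposed Wt, and of 15.6 and 25.5 in Hif1a+/-, a difference of 0.77 ± 0.25 (unadjusted p = 0.00872, adjusted p = 0.998). In unexposed Wt its highest value, 25.8 CPM, was that of replicate 25. Without that sample the difference was 0.57 ± 0.22 and the change in Wt was 0.15, no longer below 0, and without replicate 72 the difference was 0.90 ± 0.25. Slc16a11, one of the genes most like Il1rl1, had a difference of 1.39 ± 0.73 (unadjusted p = 0.0793, adjusted p = 0.998) on 2 to 24 counts per sample.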

How the results depend on the processing

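Groups of 3 samples and 5 to 20 counts of Il1rl1 set the precision, and no paired analysis was possible because the replicate names are animal numbers that the groups do not share. All 131 alternative values of Il33's log2 fold changes moved by less than the SD between replicates of 0.50, and the change with exposure stayed between 1.08 and 1.56 in Wt and between 1.14 and 1.90 in Hif1a+/- when 1 sample was left out. The difference between genotypes in that change ran from -0.13 to 0.63. For the receptor chains no alternative passed the adjusted threshold. With 1 sample left out, Il1rl1 over both genotypes ran from -0.27 to 0.09, both factors against neither from -0.10 to 0.39, and the permutation difference from -0.062 to 0.043; for Il1rap both factors against neither ran from -0.21 to 0.05 and the interaction from -0.07 to 0.19. The sign of these small values changed without unexposed Wt replicate 25, 42 or 89, diabetes-exposed Wt replicate 50, unexposed Hif1a+/- replicate 14 or 32, or diabetes-exposed Hif1a+/- replicate 66 or 72. Il1rl1 has no value under a minimum of 10 counts in every sample, since it did not reach it, and the fit of only the groups compared gives none for the interaction or for exposure over both genotypes.

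The count of pathway genes called, 0 by edgeR in each comparison, did depend on the tool. DESeq2 called 2 for exposure in Hif1a+/- (Ccl2 and Icam1) and 1 over both genotypes (Vcam1). Limma-voom with sample weights called 6 for exposure in Hif1a+/-, Ccl2, Icam1, Vcam1 and Sele as higher and Traf6 and Map3k7 as lower, beside 6.37% of all tested genes. With no filter on low counts, which also changes the spread edgeR shares between genes, 1 was called for exposure in Wt, 4 for exposure in Hif1a+/-, 1 for genotype in exposed samples, 2 for both factors against neither, 2 for the interaction and 4 over both genotypes, beside 0.476%, 2.19%, 0.812%, 1.64%, 0.288% and 2.19% of all 27093 genes in the same order. The cause of these differences was not tested. Leaving out any 1 sample gave 0 in each comparison.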
